A study of Mus musculus with 6 samples.

Results

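Cultured disc cells of Chsy3 knockout mice were set against cultured disc cells of wild-type mice, gene by gene across the transcriptome. The members of the comparison are the 2 libraries labelled Chsy3KO and the 2 labelled wild type, 4 of the 6 RNA sequencing libraries of the study, and the genes with enough counts to be tested, 16061 of the 46095 in the table. The other 2 libraries are labelled Chsy3 heterozygous and are used here only for levels set beside the others and for a direct test of knockout against heterozygous, which shares the knockout libraries with the main comparison. By their labels all 6 come from nucleus pulposus cells of mice of 8 weeks of age, grown to passage 2 in serum-containing medium after digestion of the tissue with collagenase, and all 6 are labelled male. The sources used here do not give the mouse strain, the design of the mutated allele, whether the loss is limited to a cell type, or whether the libraries of a genotype come from separate animals or cultures. The p-values therefore cover no more than the differences between libraries, possibly technical ones.

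Chsy3 encodes one of the chondroitin synthases, Golgi enzymes that lengthen chondroitin chains by adding glucuronic acid and N-acetylgalactosamine in turn. Chondroitin sulfate chains are carried by proteoglycans such as aggrecan and versican, and in the nucleus pulposus, the soft core of the intervertebral disc, their charge holds water under load. Such chains also bind growth factors, chemokines and guidance cues outside the cell.

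Total counts lay between 29622117 and 33899611 per library, and 19994 to 20422 genes had at least 1 count. Levels are given as CPM (the usual per-million counts, with totals scaled by TMM factors) for each library, and differences as log2 fold changes with standard errors (SE). Chsy3 itself, on chromosome 18, was at 8.35 and 8.36 CPM in wild type and 3.58 and 2.23 CPM in knockout, a log2 change of -1.53 ± 0.20 (edgeR, Benjamini-Hochberg adjusted p = 3.59e-08). Reads over the gene were thus fewer in both knockout libraries but present, and the sources used here do not give the exons that the mutation removes. Several defining markers of the nucleus pulposus, the tissue of the label, were absent or nearly so. T, Shh, Noto and Foxa2 had 0 counts in all 6 libraries, Acan, which encodes aggrecan, had 8 in all, Krt8 29 and Krt18 10. Of the 20 markers listed for nucleus pulposus and notochord, 12 had enough counts to be tested. Among them were Foxa1, at 18.6 and 17.5 CPM in wild type, and Lgals3, at 347 and 336 CPM. Sex-linked transcripts put the male label in doubt for all 6 libraries. The heterozygous libraries had 0 counts of the Y-linked gene Ddx3y (929 and 730 counts in wild type and 998 and 1081 in knockout). Xist, the RNA of X inactivation and a mark of female cells, was present in all 6. It was at 664 and 654 CPM in wild type and 651 and 654 CPM in knockout. Wild-type and knockout libraries thus held both Ddx3y and Xist, and whether they mix cells of both sexes was not tested. On chromosome 17, between 33.8 and 36.0 Mb, 72 of 127 protein-coding genes had fewer than 20 counts over all libraries, including genes that every cell uses. That stretch holds the major histocompatibility complex, so the levels of genes in it are uncertain and none of them is named below as changed.

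The difference between knockout and wild type was wide in the number of genes and mostly small in size. At an edgeR adjusted p under 0.05, the threshold used throughout, 6111 (38%) of 16061 genes were called, 3082 (19.2%) higher and 3029 (18.9%) lower in knockout. Most of these calls were changes of less than 1.5-fold: 1726 lay under 1.2-fold and 2285 between 1.2-fold and 1.5-fold. At the other end, 208 genes changed by more than 8-fold, 84 up and 124 down. A second edgeR test, which asks whether a change exceeds 1.5-fold, called 1065 genes (6.63%), 512 higher (3.19%) and 553 lower (3.44%), and "past 1.5-fold" below refers to this test. The median log2 fold change of all genes was -0.0031. The median absolute log2 change was 0.24 over all genes, against 0.10 between the libraries of either genotype. Libraries of knockout and wild type did not overlap for 66.6% of genes, so that a gap between the groups is by itself no mark of a gene. Likewise, counts of called members of a list below are to be read beside the 38%, 19.2% and 18.9% of all genes. In the plot of all genes, genes past 1.5-fold lie at low and at high levels, but changes at the highest levels were modest. Thbs1 and Col1a1 passed 1.5-fold at -0.69 and -0.97 log2, and Fn1 and Spp1, at -0.62 and 0.47 log2, did not.

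**Figure D1:**
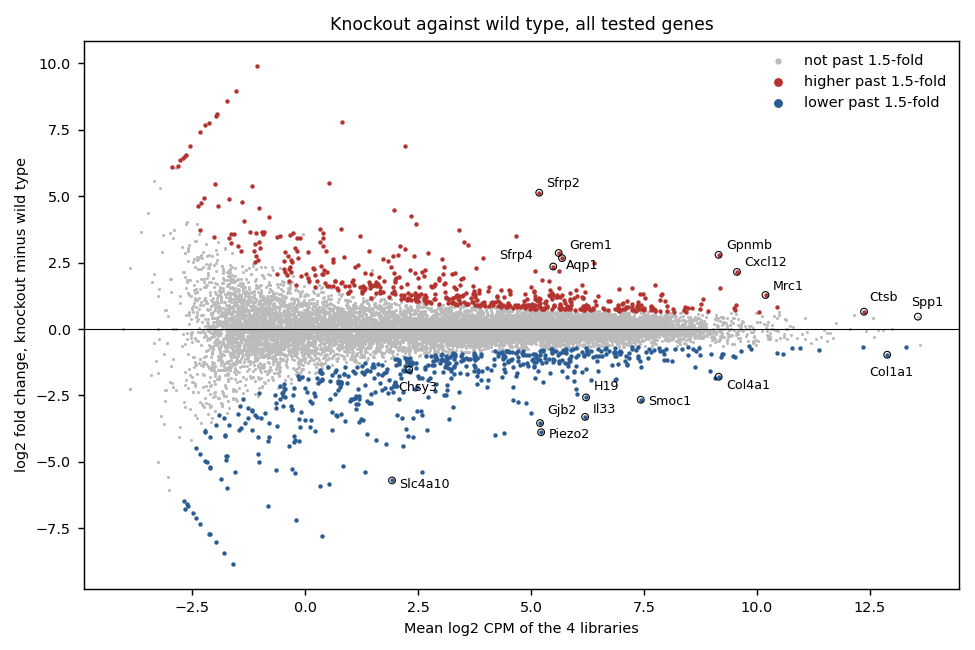
Each point is 1 of 16061 tested genes, with the mean log2 CPM of the 4 libraries on the x axis and the log2 fold change, knockout minus wild type, on the y axis. Red points are the 512 genes higher and blue points the 553 genes lower past 1.5-fold, and the circled genes include Sfrp2 at 5.13 and Slc4a10 at -5.70 log2.

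In absolute terms the 10 largest gains included the lysosomal proteases Ctsb and Ctsd, and the 10 largest losses included the collagens Col1a1, Col1a2, Col3a1 and Col5a1. The largest gain in CPM was that of Spp1, which encodes osteopontin, at 10324 and 10319 CPM in wild type and 14399.9 and 14128 CPM in knockout, or 1.38-fold. Ctsb, the lysosomal protease cathepsin B, was at 4246 and 4222 CPM in wild type and 6713 and 6595 CPM in knockout, and Fth1, the heavy chain of the iron store ferritin, at 5376 and 5271 CPM in wild type and 7138 and 6984 CPM in knockout. Each of these genes was higher in both knockout libraries than in both wild-type libraries, and 66.6% of all tested genes likewise did not overlap. Further genes among the 10 with the largest gain were Ctsd, Gpnmb, Cxcl12, Mrc1, Gas6, Lgals3 and B2m, with log2 changes between 0.53 and 2.79. The largest loss was that of Fn1, which encodes fibronectin, at 15342 and 15521 CPM in wild type and 10074 and 10020.2 CPM in knockout, followed by Col1a1 at 10475 and 10712 CPM in wild type and 5448 and 5379.9 CPM in knockout. Thbs1, Col1a2, Fbln2, Lox, Acta2, Col5a1, Col3a1 and Fbn1 made up the rest of the 10 largest losses, with log2 changes between -0.93 and -0.30. In bulk libraries such as these, fewer cells of a type and less RNA per cell cannot be told apart.

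Several chain-building enzymes other than Chsy3 fell, each by less than Chsy3 itself. Of 13 tested genes of chondroitin chain synthesis, 6 fell and 1 rose (median log2 -0.26, and -0.12 or -0.14 without wild-type library 1 or knockout library 1), and Chsy3 was the only one of them past 1.5-fold. The paralog Chsy1 was at 84.6 and 83.3 CPM in wild type and 49.2 and 53.4 CPM in knockout (-0.71 ± 0.06 log2) and Csgalnact1, which adds the first N-acetylgalactosamine, at 71.5 and 75.3 CPM in wild type and 47.8 and 52.5 CPM in knockout (-0.55 ± 0.06 log2). Fam20b, the kinase that marks the linker sugar, fell by 0.32 and the polymerizing factors Chpf and Chpf2 by 0.28 and 0.46 on the log2 scale. Xylt2, a xylosyltransferase that starts the linker, rose by 0.24, and the linker enzyme B3gat3 was at 0.14 (edgeR, adjusted p = 0.159). No paralog was higher in knockout past the threshold.

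Genes that supply sulfate and sugar donors changed by small amounts: 8 of 22 genes fell and 2 rose, none past 1.5-fold, although without wild-type library 2 or knockout library 1 only 5 or 4 genes fell past the threshold. Papss2, which makes the sulfate donor PAPS, was at 25.2 and 23.3 CPM against 16.6 and 14.8 CPM in wild type and knockout, and Gfpt2, which feeds hexosamine synthesis, at 17.6 and 15.9 CPM against 10.9 and 10.2 CPM. Ugdh, the source of glucuronic acid donors, was at 0.02 log2 (edgeR, adjusted p = 0.734). In the hyaluronan system 5 of 16 genes rose and 5 fell (3 without knockout library 1). Has2, a hyaluronan synthase of the cell membrane, fell by 1.11 log2 (29.1 and 32.2 CPM against 14 and 14.4 CPM), and the scavenger receptor Stab1, which takes up hyaluronan, rose by 0.64 (849 and 838 CPM against 1317 and 1319.8 CPM). Cemip, which starts hyaluronan breakdown, fell by 0.29. Among core proteins that carry chains on the cell surface, Gpc3, a glypican, was at 10.9 and 9.06 CPM in wild type and 0.334 and 0 CPM in knockout, and Cspg4, the proteoglycan NG2, at 205 and 204 CPM in wild type and 88.1 and 92 CPM in knockout. Esm1, a secreted dermatan sulfate proteoglycan also called endocan, moved the other way, from 5.0 and 3.15 to 35.3 and 38.2 CPM.

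Elastic fibre genes fell, some of them by more than 4-fold. Of 21 genes of the elastic fibre and microfibril, 12 fell, 8 of them past 1.5-fold, and 6 rose (median log2 -0.17). Eln, which encodes elastin, had 629 and 556 counts in wild type and 94 and 44 in knockout, or 18.5 and 16.4 CPM in wild type and 2.85 and 1.29 CPM in knockout (-3.08 ± 0.19 log2, edgeR, adjusted p = 2.22e-11). The knockout libraries lay below the wild-type libraries and the heterozygous libraries, at 40.8 and 42.5 CPM, above them. Ltbp4, which guides elastin onto microfibrils and holds latent TGF-beta, was at 64.4 and 58.5 CPM in wild type and 10.3 and 8.88 CPM in knockout (-2.68 ± 0.09 log2), and Mfap4, an elastin-binding glycoprotein, at 21.9 and 17.7 CPM in wild type and 3.49 and 3.64 CPM in knockout (-2.47 ± 0.13 log2). Both genes were several-fold lower in each knockout library, and a lack of overlap was part of the rule for naming them. The fibrillins Fbn1 and Fbn2 fell by 0.90 and 1.44 log2 and the fibulin Fbln2 by 0.77. Efemp1, a fibulin-like glycoprotein, was the one gene of the list higher past 1.5-fold, at 96.4 and 97.6 CPM in wild type and 197 and 208 CPM in knockout. The crosslinking oxidase Lox fell by 0.30 log2.

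Basement membrane genes changed in both directions. Of 21 tested, 13 fell and 5 rose, 5 and 5 of them past 1.5-fold. Col4a1 was at 1061 and 1062 CPM in wild type and 312 and 300.4 CPM in knockout, and Col4a2, its partner in the collagen IV trimer, at 847 and 872 CPM in wild type and 289 and 282 CPM in knockout. Lama2, the laminin alpha chain of muscle and nerve sheaths, fell by 1.66 log2 (77.8 and 75.7 CPM against 27.6 and 21.1 CPM). Lama1, an alpha chain of early basement membranes, rose by 2.32 (1.38 and 1.88 CPM against 8.95 and 7.39 CPM) and Lama3, an alpha chain of epithelia, by 1.57 (1.85 and 1.71 CPM against 5.43 and 5.13 CPM). Both rises started from low levels. Hspg2, which encodes perlecan and had the highest level of the list in CPM, was at -0.24 log2.

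Enzymes that finish collagen fell in 16 of 25 genes and rose in 3, or 1 without wild-type library 1 (median log2 -0.22), 5 past 1.5-fold. Plod2, a lysyl hydroxylase for crosslinks, was at 383 and 391 CPM in wild type and 172 and 176 CPM in knockout and P4ha3, a prolyl hydroxylase subunit, at 49.4 and 50.2 CPM in wild type and 23.3 and 24.2 CPM in knockout. The chaperone Serpinh1 fell by 0.59 log2, and P4hb, the other subunit of the prolyl hydroxylase, by 0.24. Matricellular proteins, which tune cell contact with matrix, went down in 17 of 32 and up in 8 (median log2 -0.51). Without 1 gene in the uncertain stretch of chromosome 17, 17 of 31 fell and 7 rose. The calcium-binding modulators Smoc1 and Smoc2 were at 432 and 435 CPM in wild type and 66.2 and 71 CPM in knockout, and at 71.2 and 74 CPM in wild type and 4.88 and 4.25 CPM in knockout. Comp, a cartilage thrombospondin, rose 2.92-fold (27.3 and 30 CPM against 87.3 and 80.4 CPM), with the heterozygous libraries higher still at 257 and 247 CPM. Of the small leucine-rich proteins, Aspn and Podn fell by 2.35 and 2.19 log2. Adam12, a membrane protease of growing connective tissue, fell by 2.46, and Adamts9, a secreted protease, rose by 1.88.

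Protease inhibitors went both ways: 9 of 18 serpin and plasminogen genes rose, 6 past 1.5-fold, and 7 fell. Serpine2, the protease nexin that blocks thrombin and plasminogen activators, was at 123 and 120.2 CPM in wild type and 378 and 388 CPM in knockout (1.65 ± 0.03 log2). Serpina3n, a secreted inhibitor, was at 4.70 and 4.89 CPM in wild type and 21.1 and 20 CPM in knockout; its family has near-identical copies, between which the counting may have split reads.

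Secreted Wnt antagonists rose and several Wnt receptors fell. Of 9 antagonists 6 rose, 3 past 1.5-fold, and 0 fell (median log2 0.50, and 0.79 without wild-type library 2). Sfrp2, a decoy that binds Wnt proteins, was at 6.14 and 6.06 CPM in wild type and 215 and 213 CPM in knockout, the largest rise among named genes whose mean log2 CPM reached 3 (5.13 ± 0.06 log2, edgeR, adjusted p = 6.01e-44). Heterozygous libraries lay at 151 and 151 CPM. Its relative Sfrp4 was at 20.4 and 19.4 CPM in wild type and 103 and 100.3 CPM in knockout (2.35 ± 0.07 log2), with the heterozygous libraries at 14.6 and 15.2 CPM. In a direct test Sfrp4 was 2.77 ± 0.07 log2 higher in knockout than in heterozygous (edgeR, adjusted p = 8.4e-31), and Sfrp2 0.50 ± 0.04 log2 (edgeR, adjusted p = 5.98e-14). Of the ligands, Wnt2 and Wnt6 fell from 6.18 to 0.755 CPM and from 5.06 to 0.802 CPM, and Rspo2, which keeps Wnt receptors at the surface, rose from 113 to 282 CPM. Among frizzled and LRP receptors and Wnt target genes 11 of 24 fell and 4 rose, or 2 without wild-type library 1 (median log2 -0.28). Axin2, a feedback target of beta-catenin, fell from 4.94 to 1.02 CPM (-2.26 ± 0.31 log2), and Ror2, a Wnt5a receptor, from 25.6 to 7.59 CPM. The frizzled receptors Fzd1 and Fzd2 fell by 1.06 and 1.04 log2.

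BMP antagonists split by gene. Grem1, which binds and blocks BMP2 and BMP4, was at 18.9 and 21.9 CPM in wild type and 126 and 134 CPM in knockout (2.67 ± 0.06 log2), and both heterozygous libraries, at 61.1 and 59.5 CPM, lay between the groups. Chrdl1, a chordin-like antagonist, rose from 0.647 to 7.45 CPM, while Chrd, chordin itself, fell from 10.3 to 5.22 CPM and Bmper from 37.9 to 18.3 CPM. In all, 3 of 12 antagonists rose and 6 fell. Of 16 BMP, GDF and activin ligands 6 fell and 2 rose, or 50% called against 38% of all genes. Gdf10 fell from 20.1 to 0.952 CPM, Bmp4, which had the highest level of the list in CPM, from 104 to 67.4 CPM, and Inhba, the activin A chain, from 85.6 to 39.8 CPM. Gdf15, a ligand raised in many stress states, rose from 15.9 to 31.6 CPM.

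Vascular and stem cell factors rose in 12 of 23 genes, 6 past 1.5-fold, and fell in 5 (median log2 0.33, and 0.19 without wild-type library 2). Kitl, the ligand of the KIT receptor, was at 19.2 and 20.5 CPM in wild type and 65.9 and 76.7 CPM in knockout (1.85 ± 0.07 log2), and Apln, the peptide apelin, rose from 1.41 to 12.4 CPM. Pgf, placental growth factor, fell from 5.57 to 0.793 CPM. The heterozygous level of Kitl, 69.6 and 66.1 CPM, was not told apart from knockout (0.07 ± 0.07 log2, edgeR, adjusted p = 0.421). In the IGF system 7 of 17 genes rose and 6 fell: Igf2 rose from 36.5 to 92.8 CPM, Igfbp4, a binding protein that holds IGF, from 543 to 1026 CPM, and Igfbp6 fell from 99.3 to 58.1 CPM. Stc1, an inhibitor of the protease that frees IGF from Igfbp4, rose from 6.03 to 38.7 CPM. FGF genes went up in 4 and down in 3 of 14, or 50% called against 38% of all genes. Fgf10 rose from 31.4 to 72 CPM and the receptor Fgfr1 fell from 235 to 116 CPM.

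Guidance cues of the slit and ephrin families fell together. 20 of 33 tested members fell and 1 rose, 8 and 1 past 1.5-fold (median log2 -0.44, against -0.0031 for all genes). Slit2, a repellent for axons and migrating cells, was at 227 and 221 CPM in wild type and 82.2 and 91 CPM in knockout (-1.37 ± 0.04 log2), and Efnb2, an ephrin that signals in both directions, at 123 and 119 CPM in wild type and 39.4 and 40.6 CPM in knockout (-1.60 ± 0.06 log2). No wild-type library overlapped a knockout library for either gene, which also held for 66.6% of all tested genes. The ephrin receptor Epha7 fell from 10.2 to 1.95 CPM and the netrin receptor Unc5c from 38.4 to 11 CPM. Slit1, the member that rose, went from 1.87 to 5.05 CPM. Semaphorins, another family of cues, did not lean one way, with 12 of 29 higher and 9 lower. Sema3d was at 81.3 and 81.5 CPM in wild type and 4.67 and 6.16 CPM in knockout and Sema3c at 161 and 149 CPM in wild type and 51.6 and 51.8 CPM in knockout, while Sema3b and Sema3f rose from 10.1 to 26.8 CPM and from 27.9 to 57.2 CPM. Flrt2, which binds Unc5 receptors, fell from 224 to 61.7 CPM. Penk, the enkephalin precursor, fell from 107 to 35.4 CPM, with 336 and 336 CPM in the heterozygous libraries.

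**Figure D2:**
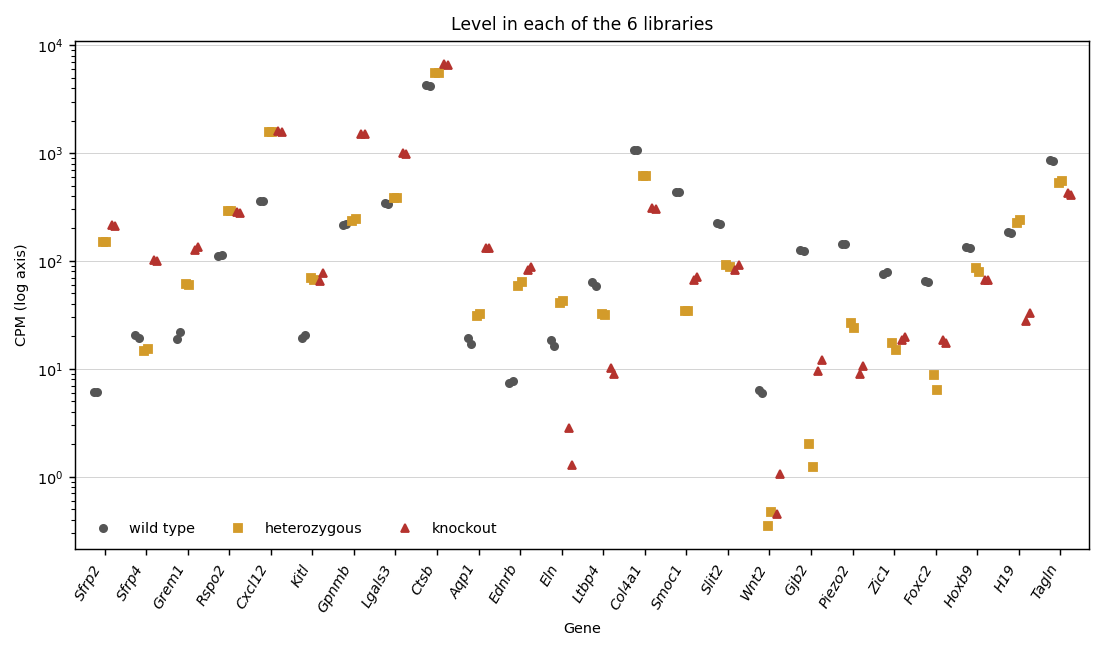
CPM on a log axis of 24 genes in each of the 6 libraries, with grey circles for wild type, orange squares for heterozygous and red triangles for knockout. The 2 libraries of a genotype lie close together, Gpnmb, Lgals3 and Sfrp4 are high in the knockout libraries alone, and Cxcl12 and Kitl are as high in the heterozygous libraries.

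Juxtacrine and Hedgehog signalling genes mostly fell. 7 of 12 Notch pathway genes were lower and 2 higher (median log2 -0.28). Hes1, a direct Notch target, was at 35.8 and 34.6 CPM in wild type and 12.9 and 12.2 CPM in knockout (-1.49 ± 0.10 log2), Hey2 fell from 1.21 to 0.119 CPM, and Hey1 was listed at 0 counts in both knockout libraries, at least 4.27-fold below its wild-type mean of 0.382 CPM with a limit of 3 counts per library. Lfng, which adds sugar to Notch and alters its choice of ligand, rose by 0.54 log2. In the Hedgehog pathway 6 of 11 fell and 2 rose, with the effector Gli2 going from 7.77 to 2.41 CPM and Ptch1, both receptor and target, falling by 0.62 log2.

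Genes that join cells to each other fell more often than they rose. Of 39 tested genes of cadherins, desmosomes and gap junctions 22 fell, 16 of them past 1.5-fold, against 2 that rose (median log2 -0.95). Gjb2, which encodes connexin 26, was at 126 and 125 CPM in wild type and 9.59 and 12 CPM in knockout (-3.54 ± 0.08 log2, edgeR, adjusted p = 3.34e-32). Heterozygous libraries were lower than knockout for Gjb2, at 2.01 and 1.23 CPM. Perp, a desmosome protein, was at 29.1 and 28.3 CPM in wild type and 2.91 and 2.64 CPM in knockout, and the desmosomal plakophilin Pkp1 had 0 counts in both knockout libraries, at least 14.8-fold below its wild-type mean of 1.32 CPM. The most abundant members in CPM moved less than Gjb2, Perp and Pkp1. Cdh11, a cadherin of mesenchyme, was at -0.68 log2, Gja1, connexin 43, at -0.26, and the tight junction adaptor Tjp1 at -1.0. Adhesion to matrix was mixed, with 7 of 24 integrins higher and 10 lower. Itgb4, the partner of laminin in hemidesmosomes, fell from 7.93 to 2.63 CPM and Itga3, a laminin receptor chain, rose from 8.96 to 20.5 CPM.

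Several of these genes mark arachnoid and other meningeal fibroblasts, the cells that wrap the cord beside the spine. Of 32 tested markers of such cells (of 36 listed), 19 fell, 17 of them past 1.5-fold, and 5 rose, 2 of them past 1.5-fold (median log2 -0.86). Changes in the list ran from -7.17 to 3.19 log2. The summed level of the list was 2873 and 2849 CPM in wild type, 2269 and 2236 in heterozygous and 1999.7 and 1959.7 in knockout. Slc4a10, a bicarbonate transporter of barrier cells, was at 26 and 28.5 CPM in wild type and 0.789 and 0.264 CPM in knockout, and Il33, an alarmin cytokine, at 238 and 223 CPM in wild type and 22.1 and 24.6 CPM in knockout. Both were far lower in every knockout and heterozygous library, at 0.277 and 0.440 and 59.2 and 61.1 CPM in the latter. The nerve growth factor receptor Ngfr had 251 and 225 counts in wild type, 235 and 203 in heterozygous and 2 and 1 in knockout. Klf5, an epithelial transcription factor, fell from 16.8 to 1.26 CPM and Crabp2, which carries retinoic acid, from 5.97 to 0.541 CPM. Slc22a6, a transporter of the leptomeninges, had 0 counts in all 6 libraries. The part that a change in the number of such cells has in the junction, transporter and transcription factor results was not tested. Schwann cell markers, 10 tested, fell in 5 and rose in 2, with Sox10 at 29 and 67 counts in wild type and 0 and 2 in knockout. Their summed level went the other way, from 226 and 223 CPM in wild type to 343 and 321 in knockout, with 344 and 346 in heterozygous.

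Channels and transporters moved in both directions, and a few by large factors. Piezo2, a channel opened by stretch, was at 143 and 144 CPM in wild type and 8.89 and 10.5 CPM in knockout (-3.88 ± 0.07 log2), with 26.8 and 24.1 CPM in heterozygous, whereas its relative Piezo1 was at -0.09 log2 (edgeR, adjusted p = 0.00478, and 0.0742 without knockout library 2). The anoctamins Ano5 and Ano1, a scramblase-like protein and a calcium-gated chloride channel, fell from 24 to 1.70 CPM and from 12.3 to 1.32 CPM. Cacna1c, the pore of the L-type calcium channel, fell from 61.6 to 20.4 CPM. Water and chloride channels rose in 11 of 18 genes, 6 past 1.5-fold, and fell in 2. Aqp1, the main water channel of many connective tissues, was at 19.2 and 17.1 CPM in wild type and 131 and 133 CPM in knockout (2.86 ± 0.07 log2). It was 2.05 ± 0.06 log2 higher in knockout than in heterozygous (edgeR, adjusted p = 1.46e-28), where it stood at 31.1 and 32.4 CPM. Aqp9, a channel for glycerol, rose from 2.53 to 11 CPM. Clca3a1 rose from 2.88 to 37.7 CPM, but has a near-identical neighbour, Clca3a2, with which reads may be shared. Solute carriers split about evenly, 60 of 235 up and 56 down, or 49.4% called against 38% of all genes. Without 1 gene in the uncertain stretch of chromosome 17, 60 of 234 rose and 55 fell. The sodium bicarbonate cotransporter Slc4a4 fell from 95.1 to 10.6 CPM and the citrate transporter Slc13a5 from 12.2 to 0.671 CPM, while the abundant taurine transporter Slc6a6 was at 0.28 log2.

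In a list of endothelin, angiotensin and adrenergic receptors and related genes, 10 of 18 rose and 2 fell (median log2 0.59). Ednrb, an endothelin receptor, was at 7.44 and 7.74 CPM in wild type and 82.4 and 88.5 CPM in knockout (3.49 ± 0.08 log2), whereas the other endothelin receptor, Ednra, fell from 8.54 to 5.57 CPM. Agt, the precursor of angiotensin, rose from 1.60 to 13.1 CPM, and Enpep, an aminopeptidase that trims angiotensin, from 2.28 to 10.7 CPM. Npr3, the clearance receptor of natriuretic peptides and the highest of the list in CPM, was at 0.18 log2 (edgeR, adjusted p = 9.35e-06). Adhesion receptors of the G protein class, Adgrf5 and Adgrg2, rose from 5.68 to 21.8 CPM and from 7.47 to 22.7 CPM.

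Hox genes, which hold a record of position along the body axis, fell as a family by a small amount. Of 32 tested Hox genes 22 fell and 1 rose, 5 and 0 past 1.5-fold (median log2 -0.60). All 4 clusters took part, with 6 of 10 Hoxa, 6 of 8 Hoxb, 6 of 8 Hoxc and 4 of 6 Hoxd genes lower. Hoxb9 was at 135 and 132 CPM in wild type and 66.4 and 66.9 CPM in knockout (-1.0 ± 0.05 log2), with 86.1 and 79.2 CPM in heterozygous. Hoxc5 fell from 13 to 5.60 CPM and Hoxd10 from 11.1 to 4.90 CPM. Hoxa11 was the single one that rose, from 1.37 to 2.52 CPM, and it did not pass without wild-type library 1 or 2 or knockout library 1 (edgeR, adjusted p = 0.0559, 0.114 and 0.188). Hoxc6 and Hoxc10, which follow Hoxb9 in level, were at -0.45 and -0.60 log2. The lowest changes by cluster were -0.93 in Hoxa, -1.0 in Hoxb, -1.62 in Hoxc and -1.42 log2 in Hoxd.

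**Figure D3:**
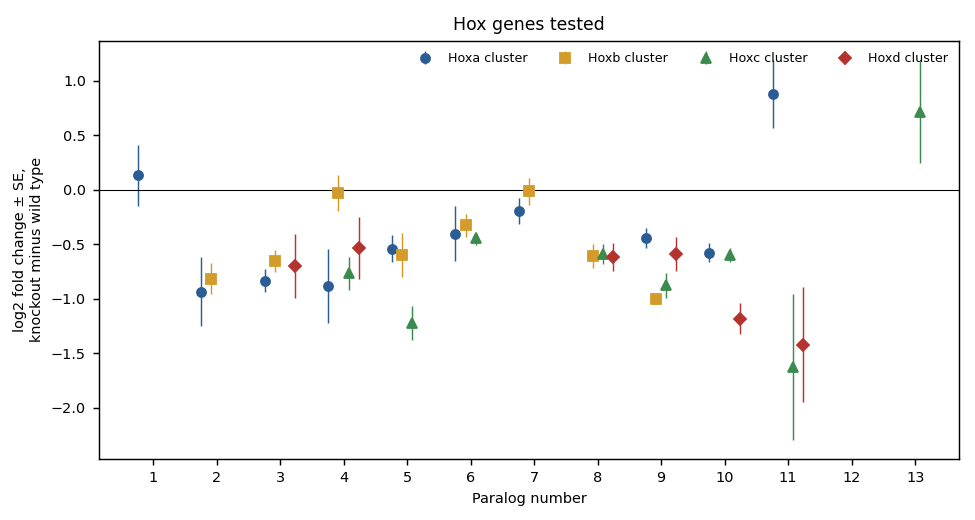
Log2 fold change with its SE, knockout minus wild type, of the 32 tested Hox genes by paralog number, with 1 symbol per cluster. Most points lie between 0 and -1.0, in all 4 clusters, and the 2 points clearly above 0 are Hoxa11 and Hoxc13, of which Hoxa11 passed the threshold.

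Forkhead, T-box and Zic factors changed as well. 16 of 26 forkhead genes fell, 9 past 1.5-fold, and 2 rose (median log2 -0.45). Foxc2, a regulator of paraxial mesoderm and vessels, was at 65.5 and 63.7 CPM in wild type and 18.4 and 17.5 CPM in knockout (-1.85 ± 0.09 log2), and Foxa1, which opens chromatin in endoderm and notochord, at 18.6 and 17.5 CPM in wild type and 4.10 and 4.28 CPM in knockout. Foxd3, a neural crest factor, had 0 counts in both knockout libraries, at least 9.04-fold below its wild-type mean of 0.809 CPM. Foxp1 and Foxo3, the highest in CPM, were at -0.50 and 0.04 log2. In a list of T-box, Zic, Pax and related factors 9 of 20 fell, all 9 past 1.5-fold, and 6 rose. Zic1 was at 75.7 and 79.1 CPM in wild type and 18.5 and 19.9 CPM in knockout and its neighbour in the family Zic2 at 27.8 and 25.3 CPM in wild type and 3.55 and 3.40 CPM in knockout. Eya1, a transcriptional coactivator, rose from 20.3 to 44.7 CPM. Among homeobox and bHLH factors of the skeleton and mesenchyme, Twist2 fell from 17.7 to 4.94 CPM and Prrx1 from 305 to 174 CPM. Zic1, Zic2, Zic4, Foxc1 and Foxd1 are also on the list of arachnoid markers given above.

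Imprinted genes showed no common direction, 5 of 25 up and 9 down, but the neighbours H19 and Igf2, which are read from opposite parental copies, went apart. H19, a noncoding RNA, was at 184 and 179.7 CPM in wild type and 28 and 33.1 CPM in knockout (-2.57 ± 0.05 log2), against 226 and 241 CPM in heterozygous. Igf2 was at 35.1 and 37.8 CPM in wild type and 92.6 and 93.1 CPM in knockout (1.35 ± 0.06 log2), with 60.4 and 57.6 CPM in heterozygous. H19 was low in knockout alone (-2.93 ± 0.05 log2 against heterozygous, edgeR, adjusted p = 3.53e-33), whereas Igf2 was lowest in wild type. Grb10, a brake on insulin signalling, fell from 602 to 304 CPM, and Cdkn1c, a cell cycle inhibitor, rose from 0.779 to 2.41 CPM. Allele of origin was not measured.

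Lysosomal genes rose broadly and by small amounts. Of 52 tested cathepsins, hydrolases and proton pump subunits 37 rose and 5 fell, 4 and 1 of them past 1.5-fold (median log2 0.33), where 19.2% of all genes rose. The summed level of the list was 19912 and 19754 CPM in wild type and 27587 and 27053 in knockout. Lipa, which frees cholesterol and fatty acids in the lysosome, was at 255 and 255 CPM in wild type and 449 and 462 CPM in knockout and Gusb, a glycosaminoglycan hydrolase, at 282 and 270.0 CPM in wild type and 433 and 436 CPM in knockout. Ctse, an aspartic protease of endosomes, was at 22 and 23.5 CPM in wild type and 80.7 and 76.6 CPM in knockout, and with 22.2 and 21.6 CPM in heterozygous it was 1.84 ± 0.07 log2 higher in knockout than there (edgeR, adjusted p = 2.04e-24). Gpnmb, a membrane glycoprotein of loaded lysosomes, was at 213 and 219 CPM in wild type and 1499 and 1496 CPM in knockout and 236 and 242 CPM in heterozygous. The step lay between heterozygous and knockout for Gpnmb (2.65 ± 0.03 log2, edgeR, adjusted p = 1.31e-46) and for Lgals3, a lectin that binds damaged lysosomes (347 and 336 CPM in wild type and 1008 and 989 CPM in knockout, 383 and 387 CPM in heterozygous, 1.37 ± 0.03 log2, edgeR, adjusted p = 3.33e-36). Npl, an enzyme of sialic acid breakdown, rose from 39.5 to 126 CPM and Mmp12, the macrophage elastase, from 6.04 to 19.1 CPM. Atp6v0e2, a pump subunit, was the one gene of the list lower past 1.5-fold, from 10.7 to 2.97 CPM.

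Lysosomal genes often carry the CLEAR element, bound by TFEB and its relatives, and its palindromic core TCACGTGA, which reads the same on both strands, was looked for in RefSeq promoter windows (GRCm38.p6, 250 bases before to 50 after the start). It lay in 6 of the 37 members with a window (16.2%), against 1.12% of all 27025 genes with one and 2.01% of the tested ones. The 3 rising members with a match and the largest changes are shown, 5′ to 3′ along the gene's strand, with the core in capitals.
Ctsd, chr7:142387899-142387946, minus strand: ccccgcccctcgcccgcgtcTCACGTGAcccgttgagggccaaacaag
Atp6v1a, chr16:44139364-44139411, minus strand: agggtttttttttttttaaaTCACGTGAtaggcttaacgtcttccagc
Mcoln1, chr8:3500453-3500500, plus strand: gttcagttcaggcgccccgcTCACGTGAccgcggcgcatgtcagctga
Ctsd encodes cathepsin D and rose by 0.53 log2, Atp6v1a, a proton pump subunit, by 0.47, and Mcoln1, the lysosomal calcium channel, by 0.42. All 6 members with a match were among the 27 rising members with a window. A match is a run of letters and not a bound site.

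Receptors of macrophages rose in 25 of 29 genes, 10 past 1.5-fold, and fell in 1 (median log2 0.56). Mrc1, the mannose receptor, was at 750.1 and 751 CPM in wild type and 1826 and 1821 CPM in knockout, and Cd36, a scavenger receptor for lipids, at 20.9 and 20.4 CPM in wild type and 51.1 and 56.2 CPM in knockout. Gas6, a bridge between dying cells and the Mer receptor, rose from 1045 to 1868 CPM. Clec7a, the receptor for beta-glucan, rose from 2.21 to 6.53 CPM and Clec4n from 24 to 51.6 CPM. Toll-like receptors and their adaptors rose in 15 of 20 and fell in 0, of which Tlr4 alone was past 1.5-fold, at 61.4 and 64.4 CPM in wild type and 115 and 121 CPM in knockout. Of 17 general macrophage markers 11 rose and 1 fell (median log2 0.27), with a summed level of 15022 and 14735 CPM in wild type, 17903 and 17774 in heterozygous and 17144 and 16969 in knockout. Lyz2 and C1qa, abundant macrophage products, were at -0.04 and 0.03 log2 (edgeR, adjusted p = 0.0541 and 0.406, while Lyz2 passed under 4 of the alternatives, with RLE size factors at 0.0464, DESeq2 at 0.024, without robust estimation at 0.024 and without wild-type library 2 at 0.0198), and Cx3cr1, the fractalkine receptor, fell from 139 to 29.3 CPM. The part that the number of macrophages has in the lysosomal, receptor and interferon results was not tested.

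Complement and chemokine genes mostly rose. 19 of 26 complement genes rose, 9 past 1.5-fold, and 1 fell (18 of 24 rose without C4b and Cfb, which lie in the uncertain stretch of chromosome 17). C3, the central component, was at 170.0 and 173 CPM in wild type and 368 and 355 CPM in knockout, and Cfp, properdin, at 122 and 122 CPM in wild type and 281 and 272 CPM in knockout. C1s1 and C1ra, the proteases of the first component, rose from 47.1 to 106 CPM and from 39.3 to 86 CPM, and each has a close copy with which reads may be shared. Clu, clusterin, rose from 12.1 to 33.5 CPM. Of 21 chemokines 14 rose, 10 past 1.5-fold, and 2 fell (median log2 1.02). Cxcl12, which holds stem cells and leukocytes in place, was at 357 and 360.5 CPM in wild type and 1612 and 1570.3 CPM in knockout, and 1568 and 1574 CPM in heterozygous, not told apart from knockout (0.02 ± 0.02 log2, edgeR, adjusted p = 0.546). Ccl6 rose from 23.3 to 105 CPM and Cxcl2, a neutrophil attractant, from 3.07 to 12.1 CPM. Ccl20 fell from 32 and 26 to 1 and 5 counts, a call lost without knockout library 1 (edgeR, adjusted p = 0.0861). Among interleukins and their receptors 16 of 41 rose and 3 fell, or 46.3% called against 38% of all genes. Il1rl1, the receptor of Il33, rose from 38.1 to 106 CPM, opposite to its ligand, and Il22ra1, a receptor chain of barrier cells, went to 0 counts in both knockout libraries, at least 19.4-fold below its wild-type mean of 1.74 CPM.

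Interferon-stimulated genes rose in 41 of 62 and fell in 3, but only 4 rose past 1.5-fold (median log2 0.27). Without 1 gene in the uncertain stretch of chromosome 17, 40 of 61 rose and 3 fell. Rsad2, the antiviral enzyme viperin, was at 18.5 and 20.6 CPM in wild type and 37.1 and 33.4 CPM in knockout, with 8.84 and 8.96 CPM in heterozygous. Oasl1 rose from 7.09 to 15.4 CPM and Epsti1 from 19.4 to 34.5 CPM. Ifitm1 fell, from 10.3 to 1.66 CPM, while Ifitm3 and Ifitm2, among the highest of the list in CPM, were at 0.14 and 0.15 log2. The list's best-known promoter element, the interferon-stimulated response element, was searched as GAAA, any 2 bases and GAAA again, on both strands of the same windows. It lay in 25 of 48 members (52.1%), against 3.99% of all genes and 3.88% of tested ones, and in 17 of the 35 rising members with a window. The 3 rising members with a match and the largest changes are shown with the element in capitals; where it reads on the other strand, its complement is seen.
Igtp, chr11:58199502-58199551, plus strand: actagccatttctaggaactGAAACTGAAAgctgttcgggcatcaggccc
Rsad2, chr12:26456543-26456592, minus strand: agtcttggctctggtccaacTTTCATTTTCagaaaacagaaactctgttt
Gbp7, chr3:142530263-142530312, plus strand: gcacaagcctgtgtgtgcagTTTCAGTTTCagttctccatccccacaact
Igtp, an interferon-induced GTPase, rose from 0.368 to 1.26 CPM, but did not pass without wild-type library 1 or knockout library 1 (edgeR, adjusted p = 0.192 and 0.332), and Gbp7, a guanylate-binding protein, from 14.2 to 24.7 CPM.

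**Figure D4:**
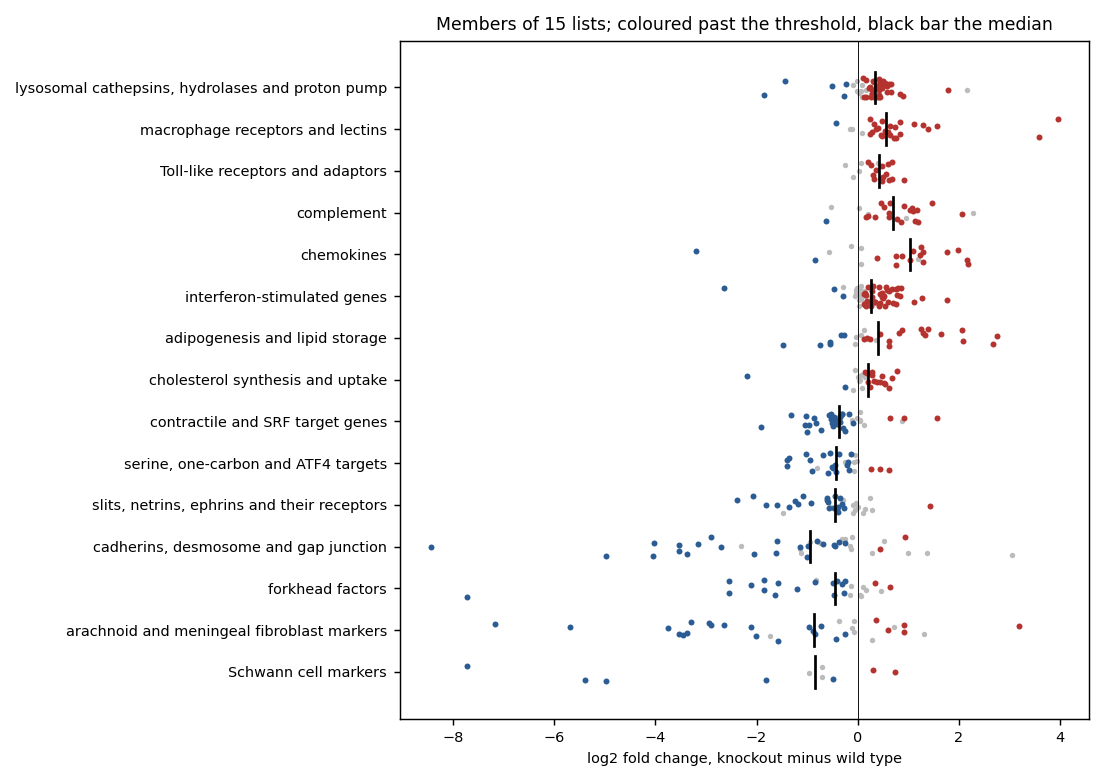
Log2 fold change, knockout minus wild type, of each tested member of 15 lists, red and blue where it passed the threshold higher or lower and grey where it did not, with a black bar at the list's median. Points of the immune and lysosomal lists crowd right of 0, most within 1 log2 unit, and those of the junction and arachnoid lists reach far left of 0.

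Genes of the contractile apparatus, most of them targets of serum response factor (SRF), fell in 28 of 38 and rose in 3 (median log2 -0.37), 9 and 1 past 1.5-fold. Tagln, the smooth muscle protein SM22, was at 859 and 844 CPM in wild type and 423 and 405 CPM in knockout, and Actg2, a smooth muscle actin, at 157 and 155 CPM in wild type and 41.7 and 41 CPM in knockout. Every knockout library lay below every wild-type library for both, but 66.6% of all tested genes likewise did not overlap. For Actg2 the lack of overlap was also part of the rule for naming it. Myh10, a nonmuscle myosin, fell from 195 to 96.9 CPM. The most abundant genes, Actb, Flna and Myh9, which encode cytoplasmic actin, filamin A and nonmuscle myosin, were at -0.09, -0.29 and -0.36 log2. Ankrd1, a stretch-induced cofactor, rose from 5.66 to 16.8 CPM. Markers of pericytes and smooth muscle, which overlap this list, fell in 9 of 14 and rose in 2, with summed levels of 4458 and 4398 CPM in wild type and 2654 and 2617 in knockout. Myh11, which defines mature smooth muscle, was at 0.11 log2 (edgeR, adjusted p = 0.359). The part of cell numbers in this result was not tested.

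SRF binds the CArG box, which was searched by name in the promoter windows and lay in 8 of 30 contractile members (26.7%), against 1.81% of all genes and 1.54% of tested ones. Of the 23 members that fell and have a window, 6 held it. The 3 with the largest falls and a match before the start are shown with the box in capitals.
Fhl1, chrX:56779561-56779610, plus strand: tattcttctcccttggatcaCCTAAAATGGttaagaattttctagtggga
Cnn2, chr10:79988524-79988573, plus strand: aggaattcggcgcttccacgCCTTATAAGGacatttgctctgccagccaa
Myl9, chr2:156775283-156775332, plus strand: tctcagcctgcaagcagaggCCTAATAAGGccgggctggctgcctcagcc
Fhl1, a LIM protein of muscle, was at 191 and 195 CPM in wild type and 73.3 and 80.6 CPM in knockout, a change of -1.33 ± 0.05 log2. Cnn2, a calponin, and Myl9, the myosin light chain of smooth muscle, fell by 0.48 and 0.48 log2.

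Metabolic genes of serine, one-carbon units and the amino acid response fell in 18 of 27 and rose in 3 (median log2 -0.43), 7 and 0 past 1.5-fold. Aldh1l2, a mitochondrial enzyme of one-carbon metabolism, was at 96.6 and 86.9 CPM in wild type and 34.5 and 35.1 CPM in knockout, and Phgdh, the first step of serine synthesis, at 178 and 168 CPM in wild type and 93.4 and 86.8 CPM in knockout. Slc7a11, the cystine importer, was at 41.9 and 44.2 CPM in wild type and 16.7 and 16.9 CPM in knockout, and Slc7a5, an importer of large neutral amino acids, at 164 and 169 CPM in wild type and 84.3 and 80.2 CPM in knockout. Atf4 itself, the transcription factor of this response, was at -0.14 log2 (edgeR, adjusted p = 0.000933, and 0.0727 without wild-type library 1). The sequence TGATGNAA, the core of its response element, searched on both strands, lay in 8 of 24 members with a window (33.3%), against 4.51% of all genes and 2.97% of tested ones, and in 6 of the 15 members that fell. The 3 with the largest falls and a match are shown with it in capitals. The Slc7a11 stretch holds a further match, on the other strand, which is left in small letters.
Slc7a11, chr3:50443652-50443699, minus strand: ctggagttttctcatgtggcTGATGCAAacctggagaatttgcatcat
Pycr1, chr11:120643824-120643871, minus strand: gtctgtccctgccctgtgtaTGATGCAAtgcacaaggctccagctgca
Vldlr, chr19:27216800-27216847, plus strand: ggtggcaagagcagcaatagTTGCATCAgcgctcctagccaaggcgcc
Pycr1, the last step of proline synthesis, fell from 26.1 to 13.9 CPM, and Vldlr, a lipoprotein receptor, from 54.8 to 36.4 CPM.

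Lipid genes rose more often than they fell, while their summed level was lower. Of 28 genes of adipogenesis and lipid storage 17 rose, 9 past 1.5-fold, and 6 fell. The list summed to 5185 and 5102 CPM in wild type and 4745 and 4684 in knockout. Lpl, which frees fatty acids from lipoproteins, was at 150.0 and 149 CPM in wild type and 375 and 377 CPM in knockout, and Plin4, a lipid droplet coat protein, at 4.59 and 4.65 CPM in wild type and 21.1 and 17.9 CPM in knockout. Pparg, the nuclear receptor of fat cell formation, rose from 6.54 to 15.6 CPM, and Apod, a lipid carrier, fell from 27.2 to 9.81 CPM. Of the 16 adipocyte markers 10 were tested and 10 rose, with summed levels of 224 and 223 CPM in wild type, 403 and 409.8 in heterozygous and 534 and 531 in knockout, but Lep, Cidea, Pck1 and Ucp1 had 0 counts in all 6 libraries and Adipoq was at 2.25 and 1.91 CPM in knockout. The part of fat cells in this result was not tested. Cholesterol genes rose in 15 of 25 and fell in 2 (median log2 0.20), 1 and 1 of them past 1.5-fold. Their changes ran from -2.19 to 0.77 log2. Insig1, a sterol sensor, was at 90.8 and 88.1 CPM in wild type and 152 and 152 CPM in knockout. Srebf2, the regulator of the pathway, was at 0.03 log2 (edgeR, adjusted p = 0.485). The element bound by its proteins, searched as TCACNCCAC on both strands, lay in 1 of 17 cholesterol members with a window (5.88%), against 1.44% of all genes and 1.42% of tested ones, and in 0 of the 9 that rose. Retinoid genes fell in 8 and rose in 4 of 19, with the enzyme Aldh1a1 at 1.35 log2.

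Growth and stress genes showed few large changes. Of 31 mitotic genes 10 rose and 5 fell, or 48.4% called against 38% of all genes. Cdc20, an activator of the anaphase complex, went from 106 to 55.6 CPM, and Mki67 was at 0.21 log2. Senescence and p53 genes were higher in 7 and lower in 7 of 26, and Cdkn1a, the inhibitor p21, was at 0.04 log2 (edgeR, adjusted p = 0.312). Immediate early genes, which also respond to handling of cells before lysis, rose in 4 and fell in 10 of 22. Without 1 gene in the uncertain stretch of chromosome 17, 4 of 21 rose and 9 fell. Egr1 was at 74.3 and 78.9 CPM in wild type and 32 and 31 CPM in knockout, and Fos at -0.60 log2. Heat shock genes fell in 8 of 9, led by Hspb1 at -0.62 log2. Mitochondrially encoded genes, 13 in number, had summed levels of 15325 and 14910.0 CPM in wild type and 15217 and 14909 in knockout. Histone genes that lack poly(A) tails summed to 115 and 115 CPM and 114 and 115 CPM.

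Markers of other cell types differed in level and direction from list to list. Endothelial markers, 8 tested, were higher in 3 and lower in 2: Vwf rose from 20.4 to 54.9 CPM and Kdr, a VEGF receptor, from 7.34 to 18.7 CPM, while Cdh5, the endothelial cadherin, fell from 6.54 to 0.993 CPM and Cldn5 had 0 counts throughout. Osteoblast markers were higher in 3 and lower in 2 of 7, with Alpl, alkaline phosphatase, rising from 9.71 to 29.3 CPM, Ibsp falling from 3.25 to 0.177 CPM, and Sost at 0 counts. Their summed level, nearly all of it Spp1, was 10383 and 10380.0 CPM in wild type, 9538 and 9662 in heterozygous and 14463 and 14193 in knockout. Osteoclast markers rose in 3 of 7, and Calcr had 0 counts. Chondrocyte markers were higher in 3 and lower in 1 of 11, with Col2a1 at -0.10 log2 (edgeR, adjusted p = 0.52). The nucleus pulposus list had 12 tested members, 3 higher and 5 lower (3 lower without wild-type library 1), among them Krt19, from 15.8 to 2.68 CPM. Fibroblast markers fell in 8 and rose in 6 of 16, with Thy1 falling from 369 to 165 CPM and Dpt, dermatopontin, rising from 16 to 72.5 CPM. The summed level of the fibroblast list was 38021 and 38624 CPM in wild type, 45945 and 44768 in heterozygous and 24031 and 23908 in knockout, and its part in the matrix results was not tested. Tested markers of skeletal muscle and dendritic cells, 5 and 4 genes, included none past the threshold. Of mast cell markers 1 of 2 fell (Gata2), of epithelial markers 1 of 2 rose (Trp63), of neural and glial markers 1 of 5 rose (Aldh1l1), and of lymphocyte with neutrophil and of erythroid markers 1 gene each was tested and neither passed.

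Genes that lie near a mutated locus can differ between lines for reasons of strain, so the surroundings of Chsy3 were listed. Within 5 Mb of the gene 58 others were tested, of which 8 rose and 18 fell, or 44.8% against 38% of all genes. Past 1.5-fold were 5, or 8.62% against 6.63% of all genes. Of these, Gm4951 and Afap1l1 rose and Fbn2, Megf10 and Piezo2 fell. Fbn2, 965 kb away, was at 287 and 285 CPM in wild type and 103 and 107 CPM in knockout, and Piezo2, 3599 kb away, at the levels given above. Afap1l1, which encodes an actin-binding protein, rose from 16 to 30.9 CPM and Gm4951, a predicted GTPase gene, from 5.66 to 13 CPM. Megf10 fell from 32 and 25 to 1 and 8 counts. By chromosome the share called past 1.5-fold ran from 4.82% on chromosome 2 to 9.43% on chromosome 1 among the autosomes, and it was 6.58% on chromosome 18. Whether sequence of another strain surrounds the locus was not tested.

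**Figure D5:**
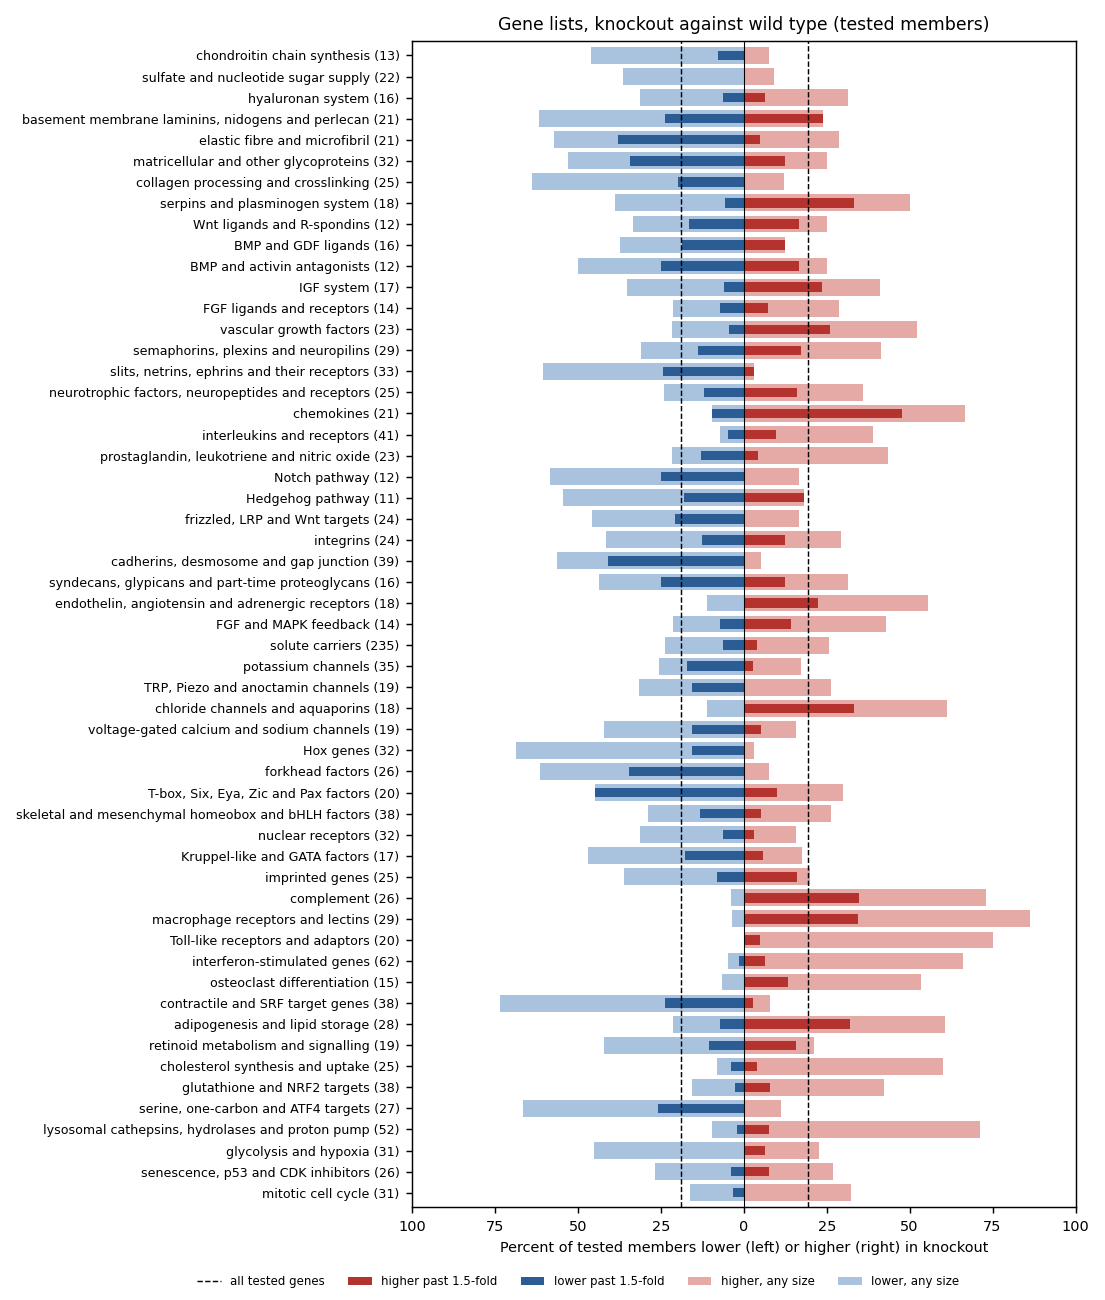
Percent of tested members of each list drawn (number of tested members in brackets, for lists of at least 10, leaving out cell type markers, library checks and the histocompatibility genes) that were higher in knockout, to the right, or lower, to the left, with pale bars for any size and dark bars for changes past 1.5-fold. Dashed lines mark the shares of all tested genes, 19.2% higher and 18.9% lower, and of the lists drawn the macrophage receptors reach furthest right and the contractile genes furthest left.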

How the data were processed

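The deposited table holds raw read counts per gene symbol in 6 columns, matched to the libraries by title. HISAT2 version 2.0.4 and GRCm38 are named per the submitters' processing notes, and the sources used here do not give the counter, annotation or strandedness. Reads of near-identical, overlapping or antisense genes may therefore have been split or shared. Counts were tested with edgeR version 4.0.16 (R 4.3.3): TMM factors, low-count filter by group with Chsy3 kept, and a single robust quasi-likelihood fit of all 6 libraries with 3 residual degrees of freedom. Knockout was contrasted with wild type in a two-sided test with Benjamini-Hochberg adjustment over all tested genes (threshold 0.05), and a second test asked for more than 1.5-fold. DESeq2 version 1.42.0 and other settings were alternatives. The procedure was tested on simulated data.

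The comparison and the 81 gene lists, 18 of them of cell type markers, were chosen with earlier results of these data known, so lists are described by counts and medians, without a set test. Genes named were taken from Chsy3, the 30 largest rises and 30 largest falls past 1.5-fold, and the 10 largest gains and losses in CPM. Others were up to 6 most changed and 3 most abundant members of a list, their partners, and genes within 5 Mb of Chsy3. The 30 in each direction had a mean of at least 3 log2 CPM and no overlap between knockout and wild-type libraries. Predicted, clone and pseudogene symbols were left out of these 30, and not all of the 30 are named above. Printed promoters were chosen after their values were seen. Positions come from RefSeq (GRCm38.p6), which placed 15061 tested genes by symbol. A count of 0 allows up to 3 counts, for counting error only. Results for a few genes are not reported here.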

Additional observations from a re-analysis of the deposited data

How the results depend on the processing

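Over 14 alternatives the number of genes called lay between 5064 and 6261 and no called gene changed its sign. Leaving out 1 library at a time gave 5064 to 6261 calls, 2603 to 3136 higher and 2461 to 3125 lower, and past 1.5-fold 874 to 1092, 405 to 523 higher and 469 to 571 lower. DESeq2 called 5302 genes and 711 past 1.5-fold, 323 of them higher, and all 711 were also called by edgeR. Scaling by library totals alone made 55.1% of calls higher, against 50.4%. Replicate numbers did not pair the samples (correlations of deviations from the group means of -0.025, 0.0092 and 0.022), and a fit with the replicate block called 6080 genes and 1057 past 1.5-fold. With 2 libraries per genotype and 3 residual degrees of freedom, the error of single genes rests largely on values shared across genes, and genes at a few counts are the least certain. List medians moved by more than the median SE of their members in 41 of 992 recalculations, and those that changed sign belong to 5 lists within 0.0705 of 0 whose medians are not given. Counts of 1 or 2 members in the rarer direction of a list changed by 1 gene under some alternatives. Setting genes at 0 in a group to their bounds left unchanged the medians given for the Notch, junction and forkhead lists.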
